A study of Mus musculus with 8 samples.

Results

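The genes described were 50 cyclins, CDKs, CDK inhibitors, E2F factors and replication and mitosis genes, chosen by symbol, each read from its probe set with the highest mean among those with 1 gene symbol. Of the 50, 48 were measured, among 19938 genes in all, and Ccnb1 and Cdkn1a were not analysed here. Whole-transcript microarrays measured RNA of mouse cumulus oocyte complexes, that is, oocytes with their surrounding cumulus granulosa cells. PRKO mice were homozygous for a lacZ knock-in (PRlacZ) that disrupts both isoforms of the progesterone receptor gene, and PR+/- mice carried 1 such allele, so the controls were not wild type. Mice of both genotypes were 21 to 23 days old, received 5 IU of equine chorionic gonadotropin (eCG) and, 44 to 47 h later, 5 IU of human chorionic gonadotropin (hCG), and complexes were taken from punctured antral follicles 8 h after hCG. Each genotype had 4 arrays from 12 animals, each array of complexes pooled from 3 animals. The insertion is present in every cell of the animal, cumulus and oocyte alike.

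Progression through the cell cycle is driven by cyclin-dependent kinases (CDKs), which need a cyclin partner and are held back by inhibitors of the Cip/Kip and INK4 families. D-type cyclins with Cdk4 or Cdk6 phosphorylate the retinoblastoma protein, which frees E2F factors to switch on replication genes, and cyclin B with Cdk1 then drives mitosis. In the ovary, granulosa cells divide while the follicle grows and leave the cycle after the ovulatory gonadotropin surge, while the oocyte resumes meiosis and carries its own stock of cyclin B, Cdk1 and spindle transcripts.

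Signals are log2 values, and each difference is PRKO minus PR+/- with its moderated standard error (SE) from limma, called when its Benjamini-Hochberg adjusted p, taken over every probe set with 1 symbol, was under 0.05. The array medians lay between 5.35 and 5.46. Pgr, the gene with the insertion, read 5.84, 5.23, 5.54 and 6.17 in PRKO against 6.09, 7.34, 6.54 and 7.15 in PR+/-, a difference of -1.09 ± 0.26 (SE, limma adjusted p = 0.0452), and the genotypes overlapped. The position of its probes against the inserted lacZ was not given, so Pgr checks the labels only weakly. Oocyte markers averaged 5.92 to 6.38 on PRKO arrays and 5.88 to 6.56 on PR+/- arrays, and 25 of the 26 measured oocyte markers and all 17 granulosa markers had a mean signal above the lower quartile of probe sets. Theca and stroma markers averaged 5.59 to 6.01 in PRKO and 5.49 to 5.77 in PR+/-, with 13 of 17 differences positive. Of these 17, 6 (35.3%) had an unadjusted limma p under 0.05, all higher in PRKO, against 16.0% of all genes. That share was 29.4% of granulosa, 7.69% of oocyte and 10% of endothelial markers. The 10 endothelial markers averaged 5.10 to 5.22 in PRKO and 5.02 to 5.08 in PR+/-, the one marker list whose arrays did not overlap between genotypes, with 6 of 10 differences positive. Without Kdr the other 9 averaged 4.90 to 5.12 in PRKO and 4.96 to 5.02 in PR+/-, and the genotypes overlapped. The 17 granulosa markers averaged 9.00 to 9.37 in PRKO and 8.92 to 9.44 in PR+/-, with 9 of 17 differences positive. Of that list, Fshr, the receptor gene of follicle-stimulating hormone, fell by 1.06 and the steroidogenic gene Cyp11a1 rose by 0.39 (limma adjusted p = 0.00221 and 0.0324). The endothelial receptor gene Kdr rose by 0.80 (limma adjusted p = 0.0126). These were the only cell type markers called. Their part in the cell cycle results was not tested. In these pools, fewer cells of a type and less RNA per cell cannot be told apart.

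Of the 48 genes, 2 fell and 2 rose in PRKO complexes, where 1.48% of all genes fell and 1.43% rose. The 4 calls are 8.33% of the members, which were chosen with earlier results of these data known, so this share is no test against all genes. Cdk6 and Cdk20 were 2.30-fold and 1.79-fold lower, and Cdk4 and the inhibitor gene Cdkn1b were 1.30-fold and 1.26-fold higher. Across all genes 2.92% were called, 286 higher and 296 lower, with 166 higher and 303 lower when each array was centred on its median and 173 and 303 after quantile normalization. The members' median difference was -0.04, with 20 of 48 positive, and that of all genes 0.00, with 10219 of 19938 positive. Without PR+/- replicate 4 the members' median was 0.02, with 26 of 48 positive. With any other array left out, 14 to 21 were positive. An unadjusted p under 0.05 was found for 9 of the 48, against 16% of all genes. The genotypes were fully separated for 6 of the 48 (12.5%), against 10.2% of all genes, with all PRKO arrays above in 3 (background 6.08%) and below in 3 (background 4.12%). The shares at an unadjusted p under 0.05 and with separated genotypes lay near the background. For 43 of the 44 genes that were not called, the 95% interval of the difference lay within a 1.5-fold change in either direction, and Cdkn2b was the exception. Signals of 42 of the 48 were at or above the median of all probe sets, and Ccna1 and Ccnb3 lay below the lower quartile.

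**Figure D1:**
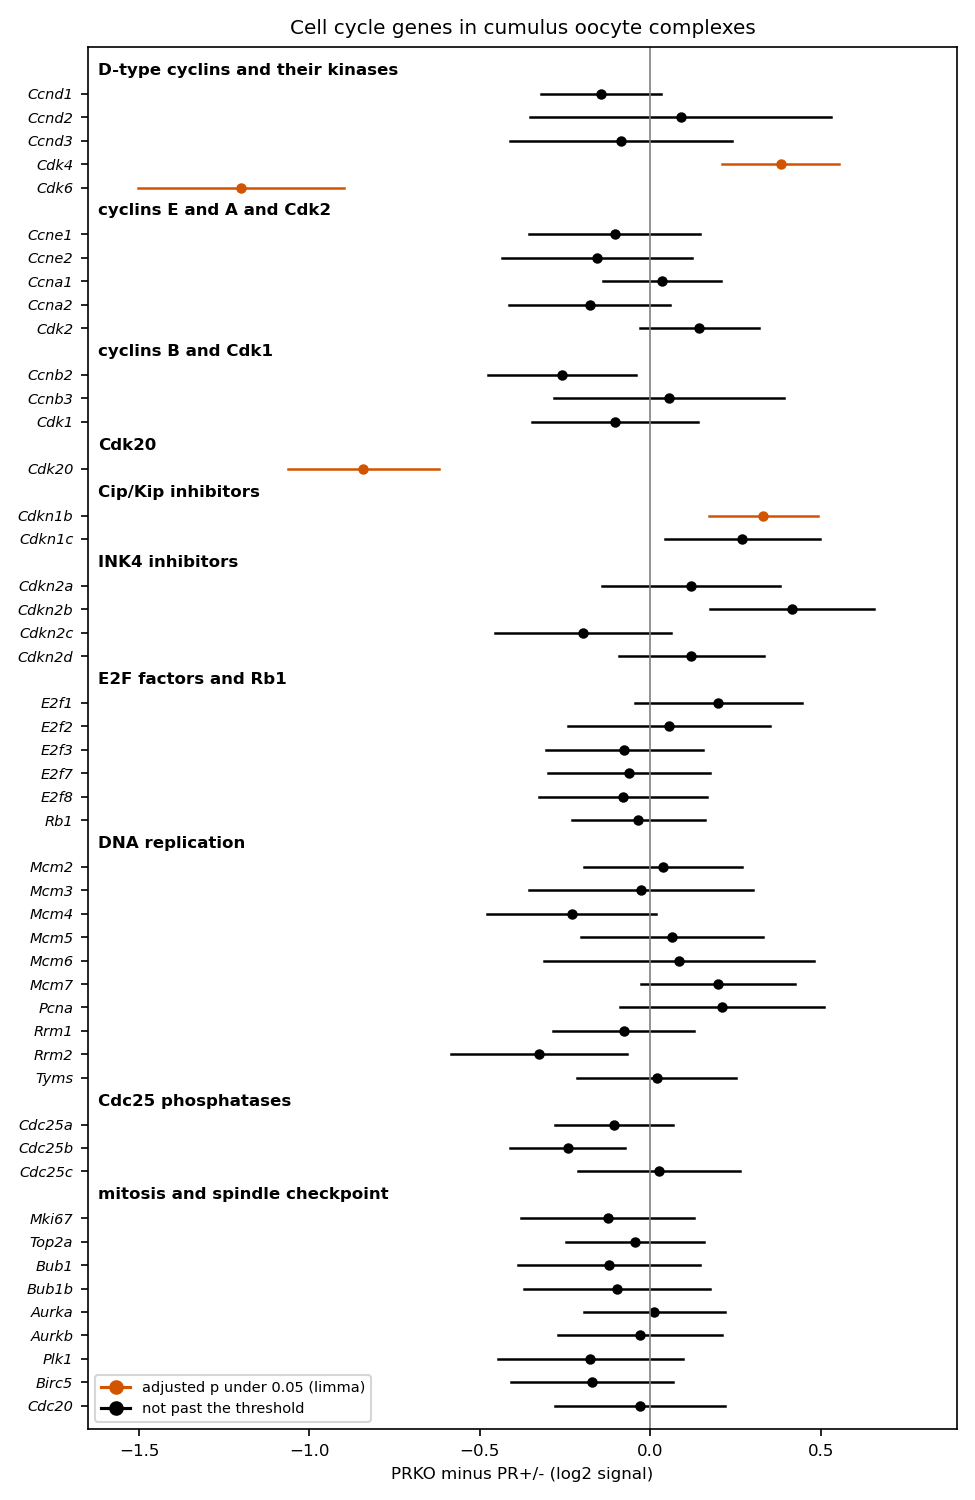
Difference between PRKO and PR+/- complexes for the 48 measured cell cycle genes, by role, on the horizontal axis in log2 signal. Points are limma estimates from 4 against 4 arrays and bars their 95% intervals. Orange marks the 4 called genes, Cdk6 (-1.20) and Cdk20 (-0.84) to the left of 0 and Cdk4 (0.38) and Cdkn1b (0.33) to the right.

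The promoters of the 4 called genes are shown with that of Ccnb2, a mitotic cyclin, for comparison. The windows run from 250 bases before to 50 after the gene start in RefSeq (GRCm38.p6), at chr5:3343643-3343942 on the plus strand for Cdk6, chr13:64432303-64432602 on the plus strand for Cdk20, chr10:127063285-127063584 on the plus strand for Cdk4, chr6:134920151-134920450 on the plus strand for Cdkn1b and chr9:70421505-70421804 on the minus strand for Ccnb2. Capitals mark matches, on either strand, to CACGTG (an E-box of the kind that Myc and related factors read), CCAAT (the box read by NF-Y), TTTGAA (the cell cycle homology region) and AGAACA (1 arm of a progesterone or glucocorticoid response element). CACGTG was added after these sequences had been read.
Cdk6: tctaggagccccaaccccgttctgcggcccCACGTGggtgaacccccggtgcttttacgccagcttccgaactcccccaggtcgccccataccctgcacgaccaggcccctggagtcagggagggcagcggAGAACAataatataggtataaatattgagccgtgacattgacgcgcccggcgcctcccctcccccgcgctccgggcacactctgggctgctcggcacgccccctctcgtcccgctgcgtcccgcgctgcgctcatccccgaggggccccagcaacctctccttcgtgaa
Cdk20: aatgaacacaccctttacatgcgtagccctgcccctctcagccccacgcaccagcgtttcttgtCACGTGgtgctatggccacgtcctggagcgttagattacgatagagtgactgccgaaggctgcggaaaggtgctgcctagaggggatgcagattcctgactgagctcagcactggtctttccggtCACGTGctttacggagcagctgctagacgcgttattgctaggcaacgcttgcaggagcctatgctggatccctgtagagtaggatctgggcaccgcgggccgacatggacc
Cdk4: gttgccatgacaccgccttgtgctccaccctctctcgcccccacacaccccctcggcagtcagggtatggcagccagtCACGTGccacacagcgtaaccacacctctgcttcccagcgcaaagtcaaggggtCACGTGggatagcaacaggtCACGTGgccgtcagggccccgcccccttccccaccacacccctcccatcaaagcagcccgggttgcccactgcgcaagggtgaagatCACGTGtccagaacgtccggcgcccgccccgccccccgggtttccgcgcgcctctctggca
Cdkn1b: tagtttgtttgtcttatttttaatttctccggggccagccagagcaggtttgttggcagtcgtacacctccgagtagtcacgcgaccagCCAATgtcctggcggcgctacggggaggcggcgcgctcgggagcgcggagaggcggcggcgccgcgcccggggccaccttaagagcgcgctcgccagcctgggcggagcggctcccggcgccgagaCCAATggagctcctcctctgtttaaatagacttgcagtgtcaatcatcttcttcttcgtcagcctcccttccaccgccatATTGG
Ccnb2: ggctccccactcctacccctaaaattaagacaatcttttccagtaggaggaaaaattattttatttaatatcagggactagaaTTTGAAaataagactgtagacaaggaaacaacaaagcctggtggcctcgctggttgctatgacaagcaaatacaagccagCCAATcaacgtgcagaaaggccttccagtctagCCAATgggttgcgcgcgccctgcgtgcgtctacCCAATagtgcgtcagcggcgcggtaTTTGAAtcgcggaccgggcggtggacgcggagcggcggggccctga
CACGTG occurred 1 time in the Cdk6 window, 2 times in Cdk20 and 4 times in Cdk4, and it occurs in 7.15% of all promoters in the table. Of the 41 genes with a promoter in the table, 4 held it. Cdkn1b and Ccnb2 each held CCAAT 3 times, a motif found in 28 of the 41 promoters and 37.4% of all. AGAACA occurred 1 time in Cdk6 and in 6 of the 41 promoters, against 19.0% of all. These matches describe letters in the windows and were not measured as binding.

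Among D-type cyclins and their kinases, Cdk6 fell and Cdk4 rose, and the cyclins were not called. Cdk6, a kinase that pairs with D-type cyclins and phosphorylates the retinoblastoma protein, read 7.38, 7.42, 7.84 and 7.63 in PRKO replicates 1 to 4 against 9.06, 8.51, 8.93 and 8.58 in PR+/- (probe set 10519324). All PRKO arrays lay well below all PR+/- arrays. The means were 7.57 ± 0.21 in PRKO and 8.77 ± 0.27 in PR+/- (SD, n = 4 arrays each), a difference of -1.20 ± 0.14 (SE, limma adjusted p = 0.000657). By size of difference it stood at rank 54 among the 19938 genes. Without any 1 array the difference was -1.29 to -1.10 and the adjusted p at most 0.00480.

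Cdk4, the other kinase partner of D-type cyclins, read 11.08, 11.23, 11.15 and 11.23 in PRKO against 10.80, 10.81, 10.68 and 10.88 in PR+/- (probe set 10366814). The PRKO arrays lay above the PR+/- arrays with a narrow spread in both. The means were 11.17 ± 0.07 in PRKO and 10.79 ± 0.08 in PR+/- (SD, n = 4 arrays each), a difference of 0.38 ± 0.08 (SE, limma adjusted p = 0.0241). The call ended without PRKO replicate 2, 3 or 4 or PR+/- replicate 1, 2 or 3 (limma adjusted p 0.0558 to 0.0777) and when each array was centred on its median (difference 0.36, adjusted p 0.0530). The difference stayed between 0.34 and 0.43 under all 20 alternatives. After adjustment for the theca and stroma marker mean it was 0.43 (limma adjusted p = 0.0529), and for Cdk6 -1.19 (limma adjusted p = 0.00810).

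The 3 D-type cyclins, which link mitogenic signals to these kinases, were not called. Ccnd2, the cyclin that follicle-stimulating hormone induces in mouse granulosa cells, read 9.72, 9.77, 9.95 and 10.11 in PRKO against 9.45, 9.79, 9.42 and 10.53 in PR+/-, a difference of 0.09 ± 0.20 (SE, limma adjusted p = 0.882). PR+/- replicate 4 was the highest of the 8 arrays and the genotypes overlapped. Without any 1 array the Ccnd2 difference was -0.04 to 0.33 and the limma adjusted p at least 0.217. The difference was -0.15 ± 0.08 for Ccnd1 and -0.09 ± 0.15 for Ccnd3 (SE), with limma adjusted p of 0.420 and 0.838.

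Cdk20 (also called Ccrk), a CDK family kinase linked to CDK activation and to the control of primary cilia, read 5.90, 5.89, 6.24 and 6.03 in PRKO against 7.03, 6.78, 6.89 and 6.71 in PR+/- (probe set 10405822). The lowest PR+/- array lay above the highest PRKO array. The means were 6.01 ± 0.16 in PRKO and 6.86 ± 0.14 in PR+/- (SD, n = 4 arrays each), and the difference was -0.84 ± 0.10 (SE, limma adjusted p = 0.000945). Cdk20 stayed called under all 20 alternatives, with differences of -0.92 to -0.78.

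**Figure D2:**
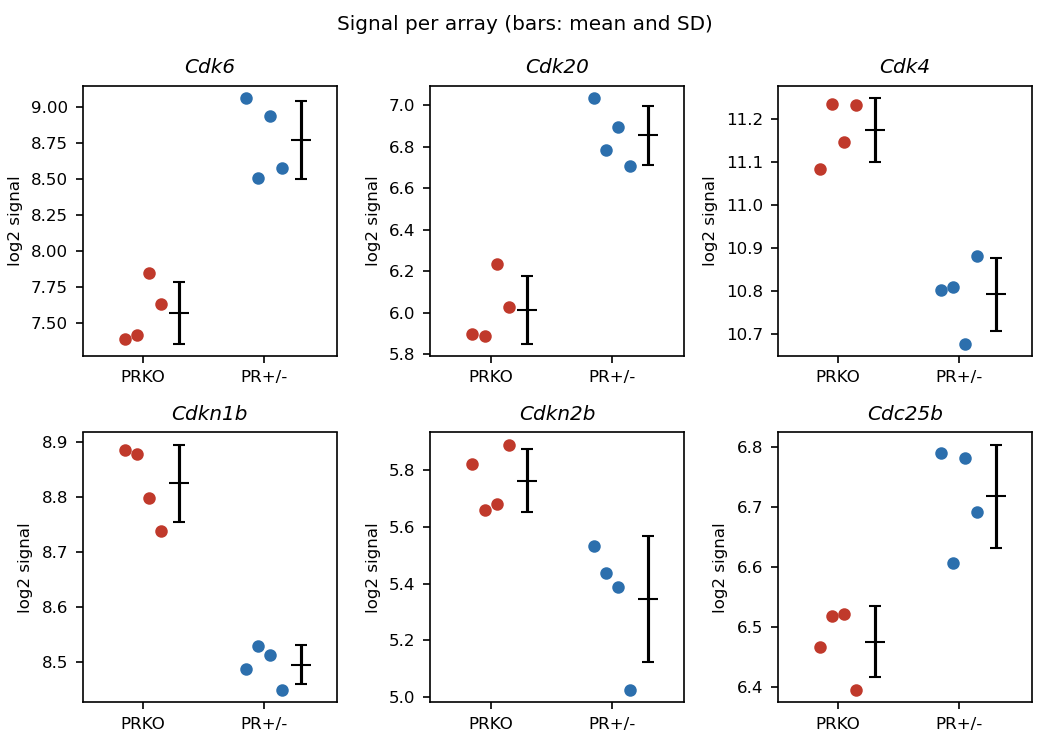
Log2 signal of 6 genes on each array, with PRKO (red) left of PR+/- (blue) and replicates 1 to 4 from left to right in each genotype. Black bars give the mean and SD of 4 arrays. The genotypes do not overlap for any of the 6, which are the 4 called genes and Cdkn2b and Cdc25b, the other non-overlapping members, and the vertical axes differ between panels and do not start at 0.

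Of 6 measured CDK inhibitor genes, 1 rose, none fell and 5 were not called, and 5 of the 6 differences were positive. Across all genes 1.43% rose and 1.48% fell, and 10219 of 19938 differences were positive. Cdkn1b encodes the Cip/Kip inhibitor of cyclin E with Cdk2, and mice without it have larger organs and infertile females. It read 8.89, 8.88, 8.80 and 8.74 in PRKO against 8.49, 8.53, 8.51 and 8.45 in PR+/- (probe set 10542310). All PRKO arrays were above all PR+/- arrays, which lay close together. The means were 8.83 ± 0.07 in PRKO and 8.49 ± 0.04 in PR+/- (SD, n = 4 arrays each), a difference of 0.33 ± 0.07 (SE, limma adjusted p = 0.0346). A second Cdkn1b probe set differed by 0.28, with an unadjusted p of 0.0405 and a limma adjusted p of 0.288. The call ended with 7 of the 8 arrays left out in turn, all but PRKO replicate 4 (limma adjusted p 0.0680 to 0.104), after quantile normalization (0.0576), after centring each array (0.0701) and after adjustment for the theca and stroma marker mean (0.106), while the difference lay between 0.30 and 0.36 in all 20 alternatives.

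Cdkn2b, an INK4 inhibitor of Cdk4 and Cdk6 that transforming growth factor beta induces in epithelial cells, read 5.82, 5.66, 5.68 and 5.89 in PRKO against 5.53, 5.44, 5.39 and 5.03 in PR+/-. The genotypes did not overlap, but the difference of 0.42 ± 0.11 (SE) missed the threshold (limma adjusted p = 0.0773), and without PR+/- replicate 4, the lowest array, it was 0.31. Cdkn1c, the Cip/Kip inhibitor of an imprinted locus, differed by 0.27 ± 0.10 (SE, limma adjusted p = 0.227). The other INK4 genes were Cdkn2a, which lies beside Cdkn2b and also encodes the p53 activator Arf, with a difference of 0.12, Cdkn2c with -0.20 and Cdkn2d with 0.12, each with SE of 0.10 to 0.12 and limma adjusted p of 0.468 to 0.695.

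The later kinase complexes were not called. For entry into and passage through DNA synthesis, the differences were -0.10 for Ccne1, -0.16 for Ccne2, 0.03 for Ccna1, -0.18 for Ccna2 and 0.14 for their kinase partner Cdk2, with limma adjusted p from 0.423 to 0.888. Ccnb2, a cyclin partner of Cdk1, read 8.16, 8.26, 8.16 and 8.35 in PRKO against 8.56, 8.35, 8.34 and 8.72 in PR+/-. Its difference of -0.26 ± 0.10 (SE) had a limma adjusted p of 0.221, and the top PRKO array reached the lower PR+/- arrays. Cdk1 itself differed by -0.10 ± 0.11 (SE, limma adjusted p = 0.715), and Ccnb3, a cyclin of meiosis, by 0.06 at signals of 2.33 to 3.14, where a background level is not known.

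The Cdc25 phosphatases remove inhibitory phosphates from CDKs. Cdc25b, which starts meiotic maturation in mouse oocytes, read 6.47, 6.52, 6.52 and 6.39 in PRKO against 6.79, 6.61, 6.78 and 6.69 in PR+/-. The genotypes did not overlap, and the difference of -0.24 ± 0.08 (SE) was not called (limma adjusted p = 0.137). Cdc25a and Cdc25c differed by -0.11 and 0.03, the second of which turned negative under either rescaling, with limma adjusted p of 0.578 and 0.942.

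E2F factors and Rb1, whose protein restrains the activating E2F factors, had differences of -0.08 to 0.20, and 0 of 6 were called in limma, with 0 at an unadjusted p under 0.05. E2f1, an activator of replication genes, differed by 0.20 ± 0.11, E2f2 by 0.06 ± 0.14 and E2f3 by -0.08 ± 0.11 (SE). A second, dimmer E2f3 probe set, outside these counts, differed by -0.51 ± 0.14 (SE). Its unadjusted limma p was 0.00296 and its adjusted p 0.0800. The repressors E2f7 and E2f8 differed by -0.06 ± 0.11 and -0.08 ± 0.11, and Rb1 by -0.03 ± 0.09 (SE), with limma adjusted p of 0.431 to 0.896 over the 6 genes.

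Of 10 replication genes, 0 were called in limma and 1, Rrm2, had an unadjusted p under 0.05. The helicase subunit genes Mcm2, Mcm3, Mcm4, Mcm5, Mcm6 and Mcm7, which load at replication origins, had differences of 0.04, -0.03, -0.23, 0.06, 0.08 and 0.20, with SE of 0.10 to 0.18 and limma adjusted p of 0.356 to 0.954. Pcna, the sliding clamp of DNA polymerase, differed by 0.21 ± 0.14 (SE, limma adjusted p = 0.506), and a second Pcna probe set also by 0.21. Rrm2, the regulated subunit of ribonucleotide reductase, read 8.07, 8.06, 8.11 and 8.61 in PRKO against 8.58, 8.47, 8.52 and 8.60 in PR+/-, a difference of -0.33 ± 0.12 (SE, limma adjusted p = 0.191). PRKO replicate 4 lay within the PR+/- values and the other 3 PRKO arrays below them, and without that array the difference was -0.46 (limma adjusted p = 0.0153). Rrm1, the large subunit, and Tyms, the enzyme that makes thymidylate, differed by -0.08 and 0.02, with limma adjusted p of 0.750 and 0.956. Promoters with TTTCCCGC or TTTGGCGC, E2F motifs, numbered 2 and 3 of the 9 replication gene promoters in the table, against 1.07% and 0.514% of all promoters.

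Of 9 mitosis and spindle checkpoint genes, 0 were called in limma and 0 had an unadjusted p under 0.05, while 8 of 9 differences were negative, or 9 of 9 under either rescaling of the arrays. Mki67, a coat protein of mitotic chromosomes used as a proliferation marker, read 9.22, 9.03, 9.00 and 8.90 in PRKO against 9.03, 8.98, 9.14 and 9.50 in PR+/-, a difference of -0.12 ± 0.12 (SE, limma adjusted p = 0.667). Plk1 and Aurka, mitotic kinases, differed by -0.18 ± 0.12 and 0.01 ± 0.10, and Aurkb and Birc5, subunits of the chromosomal passenger complex, by -0.03 ± 0.11 and -0.17 ± 0.11 (SE). The checkpoint kinase genes Bub1 and Bub1b differed by -0.12 and -0.10, the topoisomerase gene Top2a by -0.05 and the anaphase activator gene Cdc20 by -0.03. Limma adjusted p over the 9 genes ran from 0.493 to 0.968. TTTGAA occurred in 6 of the 8 promoters of this group in the table, against 17.9% of all promoters.

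The sign of the mitosis genes rested on 1 array. PR+/- replicate 4 was the highest PR+/- array for all 9 of them and for 32 of the 48 members. The mean of the 9 genes was 8.36, 8.35, 8.25 and 8.35 on PRKO arrays and 8.26, 8.39, 8.29 and 8.72 on PR+/- arrays, so only PR+/- replicate 4 stood apart. Without it 3 of the 9 differences were negative and their median was 0.03, against -0.10 with it. The 10 replication genes averaged 8.17, 8.22, 8.21 and 8.47 in PRKO and 8.11, 8.34, 8.10 and 8.54 in PR+/-, with replicate 4 highest in both genotypes. Oocyte markers averaged 6.21, 5.92, 6.01 and 6.38 in PRKO and 5.88, 6.32, 6.13 and 6.56 in PR+/-, also highest on both replicate 4 arrays, and 21 of the 26 differences were negative. The part of the oocyte markers in the mitosis values was not tested beyond the covariate fit given next. The granulosa markers were highest there too, at 9.37 in PRKO and 9.44 in PR+/-. With the oocyte marker mean as a covariate, 6 of the 9 mitosis differences were negative, with a median of -0.03, and the 4 calls remained, at differences of -1.25 for Cdk6, -0.87 for Cdk20, 0.39 for Cdk4 and 0.32 for Cdkn1b.

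**Figure D3:**
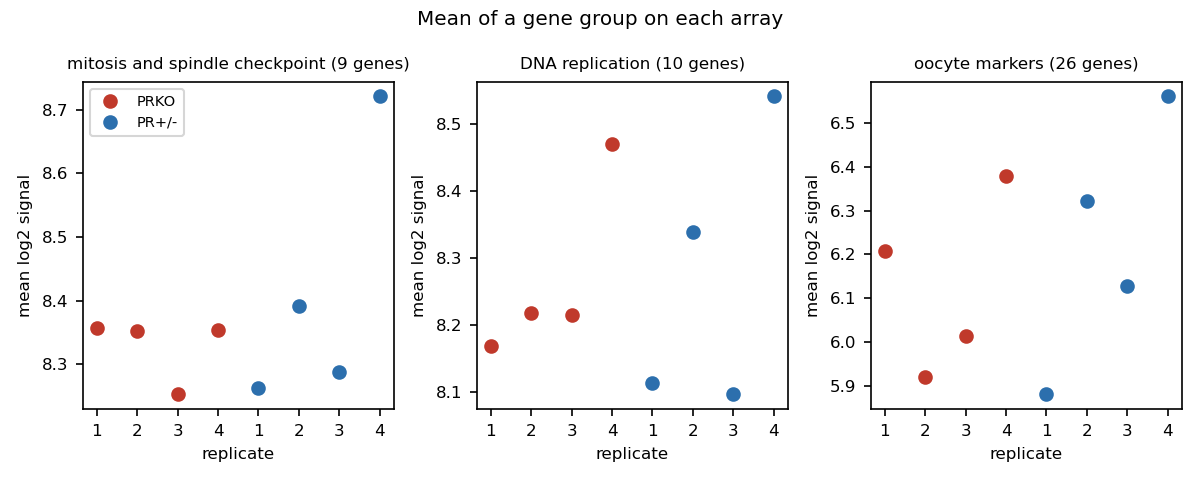
Mean log2 signal of the 9 mitosis genes, the 10 replication genes and 26 oocyte markers on each array, PRKO (red) left of PR+/- (blue), with replicate numbers below. PR+/- replicate 4 is the highest array in each panel (8.72, 8.54 and 6.56), and the 8 arrays otherwise overlap between genotypes. The vertical axes differ and do not start at 0.

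Beyond these 50 genes, 8 lists of other cell cycle and upstream genes held 276 measured genes, of which 3 rose, 5 fell and 268 were not called. The share called, 2.90%, lay at the 2.92% of all genes. Their median difference was 0.01. The list of checkpoint kinases and p53 response genes had 3 of 31 higher and none lower, and 25 of 31 positive differences with a median of 0.16, or 22 of 31 and 0.13 when each array was centred. Of all 19938 genes, 1.43% rose and 10219 differences were positive. An unadjusted limma p under 0.05 was found for 32.3% of the checkpoint and p53 list, against 16.0% of all genes. The genes of a list share the same arrays, so their signs are not independent. Rprm, a p53 target that blocks entry into mitosis in mammalian cells, rose by 0.56 ± 0.12, Rad9a, a subunit of the DNA damage clamp, by 0.40 ± 0.09, and Sesn3, a Foxo target that restrains growth signalling, by 0.34 ± 0.08 (SE), with limma adjusted p of 0.0342, 0.0455 and 0.0479. Gadd45b, a stress-induced growth arrest gene (0.59 ± 0.16), and Wee1, the kinase that holds Cdk1 inactive (-0.35 ± 0.10, SE), were not called (limma adjusted p = 0.0795 and 0.0917). The calls of all 3 higher genes ended after quantile normalization and after centring (limma adjusted p 0.0538 to 0.101) and after adjustment for the theca and stroma marker mean (0.109 to 0.175). The Sesn3 call also ended without any 1 array (0.0528 to 0.135), that of Rad9a without any 1 other than PR+/- replicate 4 (0.0655 to 0.127), and that of Rprm without any 1 other than PRKO replicate 1 or PR+/- replicate 2 (0.0506 to 0.107).

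Among 37 genes upstream of CDK inhibitors, 2 fell and none rose, where 1.48% of all genes fell and 1.43% rose. An unadjusted limma p under 0.05 was found for 21.6% of these genes, against 16.0% of all. Foxo3, a forkhead factor that activates Cdkn1b transcription in other cells and restrains follicle activation in the mouse ovary, read 7.78, 7.73, 7.70 and 7.59 in PRKO against 8.42, 8.15, 8.27 and 7.96 in PR+/-. The genotypes did not overlap, and the difference was -0.50 ± 0.10 (SE, limma adjusted p = 0.0208). The Foxo3 call ended without PRKO replicate 2, 3 or 4 or PR+/- replicate 1 or 3 (limma adjusted p 0.0534 to 0.0706) and after adjustment for the theca and stroma marker mean (0.0890). Cebpb, a transcription factor of luteinisation, fell by 0.57 ± 0.10 (SE, limma adjusted p = 0.00966). Myc, which represses CDK inhibitors and drives growth (0.40 ± 0.12), and Foxo1 (-0.37 ± 0.13, SE) were not called, with limma adjusted p of 0.120 and 0.164.

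In the list of 43 replication licensing and fork genes, 1 fell, where 1.48% of all genes did. An unadjusted limma p under 0.05 was found for 11.6% of the list, against 16.0% of all genes. Gmnn encodes geminin, which blocks relicensing of replication origins, and read 4.90, 5.09, 4.92 and 4.94 in PRKO against 5.34, 5.38, 5.26 and 5.39 in PR+/-. The arrays did not overlap between genotypes, at a difference of -0.38 ± 0.08 (SE, limma adjusted p = 0.0227). The Gmnn call ended without PRKO replicate 1, 3 or 4 or PR+/- replicate 1, 2 or 4 (limma adjusted p 0.0516 to 0.0749) and after adjustment for the theca and stroma marker mean (0.121). Gins1 (0.37) and Pold2 (0.26) had the largest other differences and were not called, with limma adjusted p of 0.298 and 0.267.

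Of 26 genes of oocyte meiotic arrest and maturation, 2 fell, where 1.48% of all genes did. An unadjusted limma p under 0.05 was found for 11.5% of the 26, against 16.0% of all genes. The 2 that fell encode catalytic subunits of the CCR4-NOT complex that shortens poly(A) tails of maternal and somatic mRNA. Cnot7 read 9.28, 9.40, 9.44 and 9.29 in PRKO against 9.98, 9.82, 9.82 and 9.75 in PR+/-, and Cnot6l read 8.78, 8.57, 8.58 and 8.31 in PRKO against 9.02, 8.94, 9.01 and 9.01 in PR+/-. Both pairs were separated by genotype, with differences of -0.49 ± 0.08 and -0.43 ± 0.10 (SE, limma adjusted p = 0.00714 and 0.0355). After adjustment for the theca and stroma marker mean the limma adjusted p was 0.0548 and 0.0890, and the Cnot6l call also ended without any 1 array other than PRKO replicate 1 (0.0667 to 0.0947). Npr2, the natriuretic peptide receptor of cumulus cells that keeps the oocyte arrested, differed by -0.37 ± 0.14, and its ligand gene Nppc by -0.34 ± 0.23 (SE), with limma adjusted p of 0.222 and 0.524.

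The other lists held no called gene in limma. Their shares of genes at an unadjusted limma p under 0.05 were 15.4%, 8.82%, 16.7% and 1.96%, in the order below, against 16.0% of all genes. Of 39 other cyclins and CDK family genes 6 had an unadjusted p under 0.05, and the CDK-binding protein gene Cables1 (-0.39 ± 0.12) and the Cdk5 activator gene Cdk5r1 (-0.27 ± 0.10, SE) had the largest differences. Of 34 APC/C and SCF ubiquitin ligase genes 3 had an unadjusted p under 0.05, led by Fbxo31 (0.35 ± 0.10), an F-box gene, and Cops5 (0.32 ± 0.11, SE), a COP9 signalosome subunit. Of 18 Rb and DREAM complex genes 3 had one, with Foxm1, an activator of mitotic genes, at -0.32 ± 0.10 and the repressor E2f6 at 0.31 ± 0.14 (SE). Of 51 spindle, kinetochore and cytokinesis genes 1 had one, Ncapd2, a condensin subunit, at -0.20, and Cenpa, the centromeric histone, was at 0.22. Limma adjusted p of these 8 genes ran from 0.110 to 0.395. In the spindle list 34 of 51 differences were negative (41 after quantile normalization, 40 after centring), and without PR+/- replicate 4 it was 15.

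**Figure D4:**
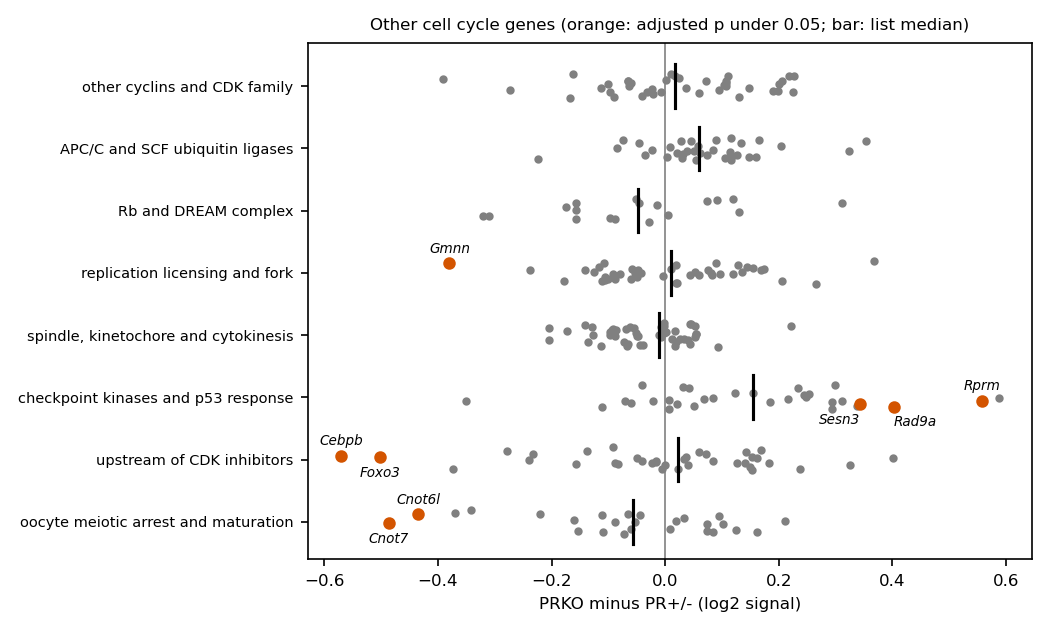
Difference between PRKO and PR+/- complexes in log2 signal for the genes of 8 further lists, 1 row per list, from limma on 4 against 4 arrays. Points are genes, jittered vertically, black bars are list medians and orange points the 8 called genes, 3 of them to the right of 0 in the checkpoint and p53 list and 5 to the left in 3 other lists.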

How the data were processed

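RNA was labelled with biotin for Affymetrix whole-transcript arrays, per the labels' protocols. The deposited table holds log2 signals made by the authors, 35556 probe sets on 8 arrays with no missing values. Partek is named, without a version, per the submitters' processing notes, and the normalization method was not given in the sources used here. Base 2 was inferred from the range of the values (1.19 to 14.08).

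The 21789 probe sets with 1 gene symbol were tested without a signal filter. Those with several symbols (1621) or none (12146) were left out. Entrez identifiers of 21698 matched RefSeq GRCm38.p6, whose symbols were used, and 91 kept the platform symbol. Limma 3.58.1 (R 4.3.3; lmFit, eBayes, two-sided) compared 4 PRKO with 4 PR+/- arrays without a block, adjusted over all 21789. The fit was tested on simulated data. Plots used Python 3.11.15 and matplotlib 3.10.9. Promoters came from RefSeq, 1 per gene, for 41 of the 50 genes, with the first listed window used for the 7 that had several. The shares of all promoters count all 32851 windows and were not reduced to 1 per gene.

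The members and lists were chosen with earlier results of these data known. The named genes were all members, called genes of each list (at most 8) and the 2 others with the largest difference. Of the cell type lists the called genes and Pgr were named, and the 2 brightest genes that the rule adds for each list are given only within the list means. Labels call the arrays biological replicates, and 12 animals per genotype made up the 4 pools of 3. The number of arrays limits precision. The closing section gives the effect of 20 alternatives.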

Additional observations from a re-analysis of the deposited data

Results flagged for a closer look

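In 3 of 96 sets of 4 arrays (48 genes in 2 genotypes) 1 array lay far from the other 3, and chance alone gives about 1 in 20. E2f1 read 6.25 in PR+/- replicate 4, against 5.78 to 5.85 on the other PR+/- arrays. Rrm1 read 9.26 in PRKO replicate 3, against 9.41 to 9.43 on the other PRKO arrays. Rrm2 read 8.61 in PRKO replicate 4, against 8.06 to 8.11 on the others.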

How the results depend on the processing

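Of the 4 called members, Cdk6 and Cdk20 stayed called in each of the 8 fits that left out 1 array, and the Cdk6 call ended without moderation (limma's linear model, adjusted p = 0.0645). The Cdk4 call also ended without moderation (0.0651) and with all probe sets tested (0.0638), and the Cdkn1b call with all probe sets tested (0.0723) and with the mean of its 2 probe sets (0.0981). The count of 4 was 2 when each array was centred, without moderation, with all probe sets tested and after adjustment for the theca and stroma marker mean, and 2 to 4 with 1 array left out. The count of 8 for the other lists was 5 after quantile normalization or centring, 1 without moderation, 2 with all probe sets tested, 1 after adjustment for the theca and stroma marker mean, and 2 to 7 with 1 array left out. Of all genes, 582 were called, against 106 without moderation, 206 with all probe sets tested, 932 at an adjusted p under 0.1, 299 after adjustment for the theca and stroma marker mean, and 301 to 532 with 1 array left out. Of the 44 members not called, 42 were not called under any alternative, Cdkn2b passed at an adjusted p under 0.1 and Rrm2 without PRKO replicate 4, and 19 with differences up to 0.12 in size changed sign under at least 1. Samples with the same replicate number deviated together with correlations of 0.08 to 0.15 over probe sets, against -0.21 to 0.22 for unlike numbers. Of 4 PRKO arrays, 2 correlated best with their own number. These values do not settle whether the numbers mark pairs. The labels do not call them pairs, and the main fit had no block. With the replicate block 3 members (without Cdkn1b, adjusted p 0.0525), 8 genes of the other lists (7 of the 8 named, without Sesn3, adjusted p 0.0509) and 671 genes in all were called. The same 4 members stayed called with array weights, with an intensity trend and robust moderation, under the filter at the median signal and with the oocyte marker mean as a covariate, where 597 to 656 genes in all were called. With probe sets averaged by gene 615 genes were called, and after quantile normalization 476. The cause of these changes was not tested. Probe sets below the median signal were not tested under the signal filter, which left 42 members.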

Other observations

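Probe sets of 1 gene did not always read alike. For E2f3 the brighter probe set differed by -0.08 between PRKO and PR+/- complexes (limma adjusted p = 0.789) and a dimmer one by -0.51 (limma adjusted p = 0.0800), while both Pcna probe sets differed by 0.21 and the Cdkn1b pair by 0.33 and 0.28. The dimmer Top2a probe set had a mean signal of 2.75 and differed by -0.04, against -0.05 for the brighter.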
